A study of Mus musculus with 4 samples.

Results

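Amino acids cross cell membranes through carrier proteins of the solute carrier (SLC) families, and the genes described here are those of 6 such families, SLC1, SLC3, SLC6, SLC7, SLC36 and SLC38. The members were taken by symbol alone, as every listed gene named Slc1a, Slc3a, Slc6a, Slc7a, Slc36a or Slc38a followed by digits. This gave 58 of the 54920 genes listed, and 46 of the 58 were among the 23952 genes that passed the expression filter and were tested. RNA came from ID4-EGFP+ spermatogonia, germ cells sorted by flow cytometry for a reporter of *Id4*, a gene that marks undifferentiated spermatogonia and their stem cells. There were 2 control and 2 *Cnot3*-cKO libraries from mice at postnatal day 8, and all mice had been injected with 4-OHT, the tamoxifen metabolite that activates creER, on days 1 to 3 after birth. Control mice carried floxed *Cnot3* on both alleles and *Id4-eGfp*, and were labelled wild-type. *Cnot3*-cKO mice carried these and *Ddx4*-creER, a recombinase whose promoter is active in germ cells, so deletion was directed to germ cells and depended on the injection. The labels do not say whether the libraries of a group came from separate animals, and p-values measure only the spread between these libraries. A legend of the study calls its replicates biological and gives more per group than the 2 libraries used here.

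*Cnot3* encodes a subunit of the CCR4-NOT complex, which shortens the poly(A) tails of mRNAs. Its level was 58.6 and 50.2 CPM (counts per 1000000 of the TMM-scaled library total) in the controls and 19.2 and 19.9 CPM in *Cnot3*-cKO cells, a log2 fold change of -1.48 (SE 0.13, edgeR quasi-likelihood adjusted p = 1.48e-05). Control libraries held 40957899 and 43378493 counted reads, against 22192964 and 28019626 for *Cnot3*-cKO. Of 12 germ cell and spermatogonial stem cell markers, all had reads in every library, with a summed level of 5108 and 5405 CPM in controls against 4594 and 4833 CPM. Of that sum, *Dazl* alone held 2339 and 2634 CPM in controls and 2024 and 2263 CPM in *Cnot3*-cKO cells. The median log2 fold change of the 12 was 0.03. Without overlap, 5 lay above control (background 30.5%) and 5 below (background 28.6%). Among the 12, *Id4* was called higher and *Nanos3* lower. Markers of somatic testis cells were also present and moved with the groups. Their counts called higher stand beside 4.03% of all tested genes. Sertoli cell markers summed to 220 and 239 CPM in controls and 659 and 626 CPM in *Cnot3*-cKO cells, and 10 of 11 were called higher. Of these sums, *Ctsl* alone held 144 and 168 CPM in controls and 387 and 343 CPM in *Cnot3*-cKO cells. The median log2 fold change of the 11 was 1.94. Macrophage markers summed to 205 and 131 against 466 and 379 CPM, with 7 of 9 called higher, and Leydig cell markers to 368 and 322 against 831 and 896 CPM, with 4 of 5 tested called higher. Endothelial markers summed to 23.9 and 21.1 against 35.8 and 40.2 CPM, with 2 of 5 called, and peritubular myoid markers to 13.6 and 16.2 against 19.95 and 24.9 CPM, with 0 of 5 called by edgeR or DESeq2 and 1 of 5 at an unadjusted edgeR p under 0.05. *Insl3*, a Leydig cell hormone gene, was the 1 marker at 0 in every library. The part of these cells in the values below was not tested. In sorted bulk RNA, fewer cells of a type and less RNA per cell cannot be told apart.

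Amino acid carriers differ in what drives them. SLC1 carriers take up glutamate and aspartate, or exchange neutral amino acids, with sodium. SLC7 light chains exchange amino acids across the membrane and need an SLC3 heavy chain to reach the cell surface, and the pair of *Slc7a11* and *Slc3a2* forms system xc-, which imports cystine in exchange for glutamate. Cystine is reduced inside the cell to cysteine, the limiting building block of glutathione. Cationic carriers of the SLC7 family bring in arginine and lysine, and SLC6 carriers use sodium and chloride gradients. Some SLC36 carriers move amino acids together with protons, and SLC38 carriers move glutamine and other small neutral amino acids. Cells also read amino acid supply, through the transcription factor ATF4 and its response genes and through mTORC1 on the lysosome, where *Slc38a9* serves as an arginine sensor.

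Most of the carrier RNA came from a few genes. Levels between genes are given in RPKM, CPM divided by the kilobases of union exon length. The 10 members with the highest level held 84.3% of the summed member RPKM in controls, and 22 of 58 exceeded 1 RPKM there. Highest was *Slc7a5*, the light chain for large neutral amino acids such as leucine, at 88.0 RPKM on average in controls, which was 32.2% of all member RPKM in controls and 30.5% in *Cnot3*-cKO cells. Its heavy chain partner *Slc3a2* followed at 47.4 RPKM. Next in the order came *Slc7a6*, a light chain that exchanges cationic for neutral amino acids, at 20.7 RPKM, *Slc38a10*, a little-studied SLC38 member, at 17.8 RPKM, and *Slc38a2*, the amino-acid-responsive glutamine carrier, at 15.9 RPKM. *Slc36a4* (11.3 RPKM), *Slc7a1* (8.53 RPKM), *Slc6a6* (7.99 RPKM), *Slc7a2* (7.71 RPKM) and *Slc6a9* (5.44 RPKM) completed the 10, and dividing by the longest transcript in place of union exons kept the same 10. Summed over all members, the level was 271 and 276 RPKM in controls and 252 and 247 RPKM in *Cnot3*-cKO cells, a ratio of 0.912.

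**Figure D1:**
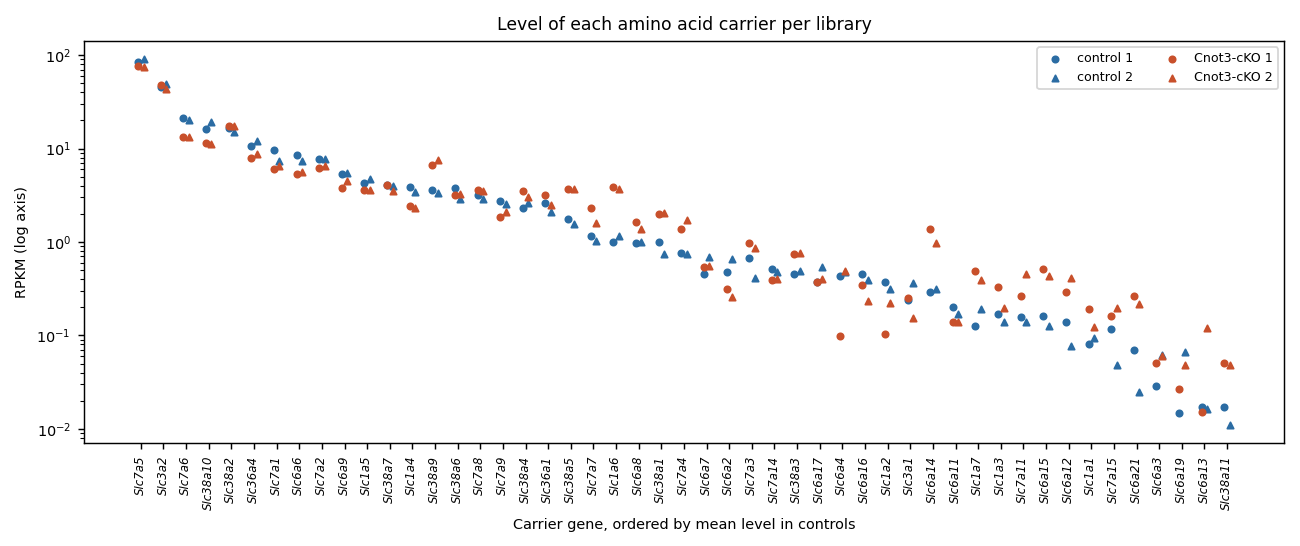
Level of 49 members with reads in every library, in RPKM on a log axis, with 1 point per library (2 control, 2 *Cnot3*-cKO) and members ordered by their control mean. *Slc7a5* and *Slc3a2* stand at the top in every library, and each of the 7 members called higher lies below both of them in every library.

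Of the 46 tested carriers, 7 rose in *Cnot3*-cKO cells and 0 fell, where a call needed an adjusted p under 0.01 together with more than a 2-fold difference. They were *Slc38a9*, *Slc38a1* and *Slc38a5* of the SLC38 family, the glutamate carrier *Slc1a6*, the SLC6 neutral amino acid carriers *Slc6a14* and *Slc6a15*, and *Slc7a4*, which is grouped with the cationic carriers by sequence. The 7 are 15.2% of the tested members, against a background of 4.03% of all tested genes called higher and 0.735% called lower. For the lower direction, DESeq2 also called 0 members. At an unadjusted edgeR p under 0.05 there were 16 members higher and 11 lower. The share of all tested genes at that cut is not given here, so no result is read from these counts. At any fold, an adjusted p under 0.01 was reached by the same number higher (7; background 6.21%) and by 3 lower (background 4.7%), which were *Slc38a10*, *Slc7a6* and *Slc6a6*. The log2 fold changes of the 46 ran from -1.06 (*Slc1a2*) to 2.31 (*Slc6a21*), 22 above and 24 below 0, with a median of -0.05 against 0.01 for all tested genes. The 22 include *Slc6a12*, *Slc6a21* and *Slc7a15*, which met the expression filter only through the *Cnot3*-cKO libraries. The sums of the Sertoli cell, macrophage and Leydig cell markers were higher in the same libraries, and their part in these calls was not tested. The 7 together held 3.03% of member RPKM in controls and 7.96% in *Cnot3*-cKO cells.

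**Figure D2:**
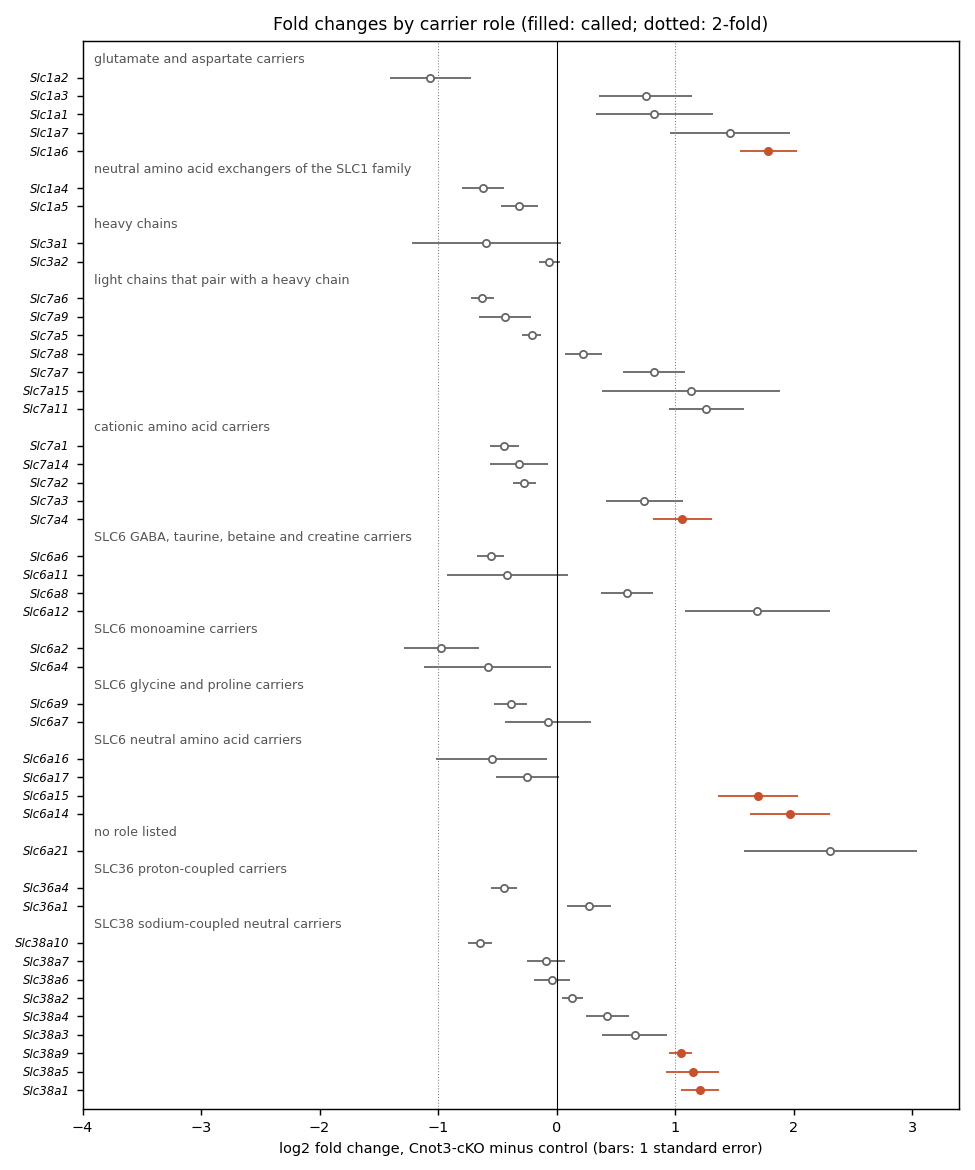
Log2 fold change (*Cnot3*-cKO over control) of 45 tested members with bars of 1 standard error, grouped by transport role, with filled points for members called higher and dotted lines at 2-fold. The 7 called members sit between 1.05 and 1.97, and 0 members are called lower.

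The cystine importer did not reach the thresholds. *Slc7a11*, the cystine and glutamate exchanger, lies on the reverse strand at chr3:49892526-50443614 (GRCm38). It had 2.21 and 1.95 CPM in controls and 3.66 and 6.28 CPM in *Cnot3*-cKO cells, from 89 and 82 reads against 83 and 180. Both *Cnot3*-cKO libraries stood above both controls, and the second stood well above the first. The means were 2.08 ± 0.184 and 4.97 ± 1.85 CPM (SD, n = 2), a log2 fold change of 1.26 (SE 0.31) with an edgeR quasi-likelihood adjusted p of 0.0131. Without *Cnot3*-cKO replicate 2 the log2 fold change was 0.81, and without *Cnot3*-cKO replicate 1 it was 1.59. With all 4 libraries, DESeq2 called the gene. Its heavy chain *Slc3a2* (chr19:8706882-8723369, reverse strand) had 162 and 173 CPM in controls and 167 and 153 CPM in *Cnot3*-cKO cells, overlapping groups with a log2 fold change of -0.06 (SE 0.09, adjusted p = 0.689). In RPKM the heavy chain outnumbered the light chain 289 and 350 times in the 2 controls, and 180 and 96.3 times in the 2 *Cnot3*-cKO libraries. *Slc7a11* made up 0.0546% of member RPKM in controls and 0.143% in *Cnot3*-cKO cells.

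Promoters were read to show which carriers bear the letters bound by the factors of amino acid shortage and of oxidative stress. TGATGNAA is the core of the element that ATF4 binds with C/EBP partners, and TGACNNNGC is the core of the antioxidant response element bound by NRF2. Both strands were searched, from 250 bases before to 50 bases after each start, in RefSeq promoters on GRCm38.p6. Of the 58 members, 41 had an entry, with 61 promoters. TGATGNAA stood in 4 of 41 member genes (9.76%) against 4.51% of 27025 genes with a promoter, and TGACNNNGC in 8 of 41 (19.5%) against 14.0%. The 4 genes were *Slc7a11*, *Slc1a4*, *Slc7a7* and *Slc6a21*, none of them called. The 8 were *Slc6a9*, *Slc7a1*, *Slc6a11*, *Slc6a13*, *Slc6a16*, *Slc7a6*, *Slc36a1* and *Slc38a2*. The promoters of *Slc38a9*, *Slc1a6*, *Slc38a5* and *Slc6a14*, the called members with an entry, held neither set of letters. Shown first is the promoter of *Slc7a11* (chr3:50443604-50443863, reverse strand), because it holds the TGATGNAA letters on each strand, then that of the neutral amino acid exchanger *Slc1a4* (chr11:20332704-20332963, reverse strand), which holds them once next to its start, and that of *Slc38a9* (chr13:112660516-112660775, forward strand), the called member with the smallest adjusted p, for contrast. Each runs 5′ to 3′ on the gene's strand from 250 bases before to 10 bases after the start, and capitals mark TGATGNAA on either strand.
Slc7a11: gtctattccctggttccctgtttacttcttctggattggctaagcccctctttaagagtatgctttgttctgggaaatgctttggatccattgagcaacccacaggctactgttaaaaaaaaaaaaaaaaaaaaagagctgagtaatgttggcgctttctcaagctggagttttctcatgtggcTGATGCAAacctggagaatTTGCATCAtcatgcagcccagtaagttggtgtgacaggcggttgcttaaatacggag
Slc1a4: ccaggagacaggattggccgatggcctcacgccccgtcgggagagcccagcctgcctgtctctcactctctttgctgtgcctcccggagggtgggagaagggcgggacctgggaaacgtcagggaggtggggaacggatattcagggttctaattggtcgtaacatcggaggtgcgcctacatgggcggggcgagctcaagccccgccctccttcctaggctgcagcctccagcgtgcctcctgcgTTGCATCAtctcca
Slc38a9: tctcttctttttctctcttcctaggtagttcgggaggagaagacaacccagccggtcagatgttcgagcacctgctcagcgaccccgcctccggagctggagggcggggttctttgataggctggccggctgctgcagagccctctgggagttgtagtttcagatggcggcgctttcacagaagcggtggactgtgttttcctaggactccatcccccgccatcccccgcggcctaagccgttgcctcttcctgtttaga
The matches of *Slc7a11* began 66 and 47 bases before the start, on the forward and the reverse strand, and that of *Slc1a4* began 4 bases before it. A match is a run of letters and not a measured binding site.

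Among the light chains and heavy chains, *Slc7a6* was the 1 member past an adjusted p of 0.01. Its levels were 97.1 and 92.2 CPM in controls and 61.3 and 61.5 CPM in *Cnot3*-cKO cells, groups that lay well apart. The log2 fold change was -0.63 (SE 0.10, adjusted p = 7.50e-04), short of the 2-fold limit. *Slc7a5* had 316 and 337 CPM in controls and 285 and 279 CPM in *Cnot3*-cKO cells (log2 fold change -0.21, SE 0.08, adjusted p = 0.0827). The libraries of the groups did not overlap, and the test did not separate them. *Slc7a7*, a light chain for cationic amino acids with the TGATGNAA letters in 2 of its 5 promoters, had 3.82 and 3.42 CPM against 7.64 and 5.24 CPM (log2 fold change 0.82, adjusted p = 0.0413). For *Slc7a8*, a light chain for neutral amino acids, *Slc7a9*, the partner of *Slc3a1*, and *Slc7a15* the log2 fold changes were 0.23, -0.43 and 1.14, and for the second heavy chain *Slc3a1* it was -0.59, with adjusted p from 0.198 to 0.578. The exons of *Slc3a1* share 26.5% of their bases with *Prepl* on the opposite strand, and whether counting used strand is not stated.

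Of the 5 glutamate and aspartate carriers, *Slc1a6* rose. It had 2.16 and 2.52 CPM in controls and 8.25 and 7.93 CPM in *Cnot3*-cKO cells, with the groups far apart against a spread of 0.254 and 0.232 CPM (SD, n = 2). The log2 fold change was 1.79 (SE 0.24, adjusted p = 3.36e-04), and 1.67 to 1.89 when 1 library was left out. The gene lies at chr10:78780496-78814765 on the forward strand. Summed over the 5 genes, the level was 1.76 and 1.91 RPKM in controls and 4.95 and 4.62 RPKM in *Cnot3*-cKO cells, 2.61 times the control level. The SLC1 neutral exchangers summed to 0.735 of control. Most of the sum over the 5 was *Slc1a6*, at 1.09 RPKM on average in controls and 3.76 RPKM in *Cnot3*-cKO cells. *Slc1a2*, the glutamate carrier prominent in astrocytes, differed with the opposite sign, with 4.92 and 4.14 CPM against 1.37 and 2.90 CPM (log2 fold change -1.06, SE 0.34, adjusted p = 0.0441). It was called lower without the expression filter and at an adjusted p under 0.05, and its log2 fold change ran from -1.73 to -0.65 over all alternatives. *Slc1a1*, which can also carry cysteine, had 0.67 and 0.784 CPM in controls and 1.59 and 1.01 CPM in *Cnot3*-cKO cells (log2 fold change 0.83, adjusted p = 0.279), and 31.9% of its exon bases overlap *4430402I18Rik* on the opposite strand. *Slc1a3* and *Slc1a7* gave 0.75 and 1.46, with adjusted p of 0.211 and 0.059. The neutral exchangers *Slc1a4*, with 15.2 and 13.6 CPM against 9.62 and 9.08 CPM, and *Slc1a5*, a glutamine exchanger with 17.8 and 19.9 CPM against 15.1 and 15.2 CPM, had log2 fold changes of -0.62 (adjusted p = 0.0266) and -0.32 (adjusted p = 0.182). In both, each *Cnot3*-cKO library lay below each control.

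The cationic carriers held 1 called member. *Slc7a4*, a relative of the arginine carriers whose own transport is not well established, had 3.13 and 3.09 CPM in controls and 5.78 and 7.19 CPM in *Cnot3*-cKO cells. The log2 fold change was 1.06 (SE 0.25, adjusted p = 0.00904), and 0.89, under the fold limit, without *Cnot3*-cKO replicate 2. *Slc7a4* also missed the thresholds when libraries were thinned to the smallest total. The gene lies at chr16:17572018-17583214 on the reverse strand, and 13.3% of its exon bases overlap *P2rx6* on the opposite strand. The arginine and lysine carriers *Slc7a1*, with 111 and 85.6 CPM against 69.8 and 75.0 CPM, and *Slc7a2*, with 70.7 and 70.1 against 57.1 and 59.6 CPM, had log2 fold changes of -0.44 (adjusted p = 0.022) and -0.27 (adjusted p = 0.0747). *Slc7a3* and *Slc7a14* gave 0.74 and -0.32 (adjusted p = 0.134 and 0.418).

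In the SLC6 family the 2 called members were neutral amino acid carriers. *Slc6a14*, a carrier of neutral and cationic amino acids with broad substrates, had 0.993 and 1.07 CPM in controls and 4.77 and 3.35 CPM in *Cnot3*-cKO cells (log2 fold change 1.97, SE 0.34, adjusted p = 0.00158). It lies at chrX:21714896-21742355 on the forward strand. *Slc6a15*, a carrier of branched-chain amino acids and proline at chr10:103367783-103419377 on the forward strand, had 1.27 and 0.975 CPM against 3.97 and 3.32 CPM (log2 fold change 1.70, SE 0.34, adjusted p = 0.00385). In both genes every *Cnot3*-cKO library was well above every control. With 1 library left out, the log2 fold change ran from 1.69 to 2.20 for *Slc6a14* and from 1.51 to 1.88 for *Slc6a15*. The other tested members of that role, *Slc6a16* and *Slc6a17*, gave -0.55 and -0.25 (adjusted p = 0.47 and 0.586). *Slc6a21*, a rodent gene with no listed role here, had the largest log2 fold change among members, 2.31, but few reads, 11 and 4 against 23 and 24 (SE 0.73, adjusted p = 0.0414).

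The most abundant SLC6 carrier, the taurine carrier *Slc6a6*, had 72.9 and 62.3 CPM in controls and 44.7 and 47.1 CPM in *Cnot3*-cKO cells (log2 fold change -0.56, SE 0.11, adjusted p = 0.00449), short of the 2-fold limit. The creatine carrier *Slc6a8* had 5.14 and 5.18 CPM against 8.56 and 7.09 CPM (log2 fold change 0.60, adjusted p = 0.0747). For the GABA carrier *Slc6a11* the log2 fold change was -0.41 (adjusted p = 0.641), and for *Slc6a12*, which carries betaine and GABA, it was 1.70 from 0.422 and 0.238 CPM in controls and 0.883 and 1.26 CPM in *Cnot3*-cKO cells (adjusted p = 0.0703). The glycine carrier *Slc6a9* had 27.6 and 28.3 CPM against 19.5 and 23.1 CPM (log2 fold change -0.39, adjusted p = 0.0735), with 27.8% of its exon bases overlapping *Ccdc24* on the opposite strand. The proline carrier *Slc6a7* gave -0.07 (adjusted p = 0.922). Of the monoamine carriers, which belong to the family without carrying amino acids, *Slc6a2* for noradrenaline had 3.004 and 4.09 against 1.99 and 1.64 CPM (log2 fold change -0.97, adjusted p = 0.0468) and *Slc6a4* for serotonin gave -0.58 (adjusted p = 0.511), with *Cnot3*-cKO libraries at 0.441 and 2.23 CPM.

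*Slc38a9* had the most reads and the smallest adjusted p of the 7 called carriers. This lysosomal membrane protein acts as an arginine sensor upstream of mTORC1. It had 59.5 and 56.0 CPM in controls and 112 and 126 CPM in *Cnot3*-cKO cells, from 2397 and 2356 reads against 2544 and 3617. Means were 57.8 ± 2.49 and 119 ± 9.90 CPM (SD, n = 2), a log2 fold change of 1.05 (SE 0.10, adjusted p = 2.78e-05). In RPKM the mean went from 3.46 to 7.14, or from 1.26% to 2.86% of the member total. The change was close to the 2-fold limit, and without control replicate 2 or without *Cnot3*-cKO replicate 2 it was under it, the lowest log2 fold change being 0.95. The gene lies at chr13:112660751-112738749 on the forward strand.

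Other SLC38 members split. *Slc38a1*, a sodium-coupled glutamine carrier at chr15:96571418-96642913 on the reverse strand, had 17.4 and 12.9 CPM in controls and 34.4 and 35.6 CPM in *Cnot3*-cKO cells (log2 fold change 1.21, SE 0.16, adjusted p = 2.94e-04), which was 0.996, under the fold limit, without control replicate 2. *Slc38a5*, which moves glutamine in either direction and lies at chrX:8271133-8280179 on the forward strand, had 4.00 and 3.49 CPM against 8.34 and 8.27 CPM (log2 fold change 1.15, SE 0.22, adjusted p = 0.00348). *Slc38a2*, the neighbour of *Slc38a1* on chromosome 15 with 44.5 kb between them, had 148 and 133 CPM against 152 and 156 CPM (log2 fold change 0.13, SE 0.09, adjusted p = 0.345). *Slc38a10* had 105 and 124 CPM in controls and 74.4 and 71.5 CPM in *Cnot3*-cKO cells (log2 fold change -0.65, SE 0.10, adjusted p = 9.37e-04). The groups of *Slc38a1*, *Slc38a5* and *Slc38a10* lay clear of each other, as did those of *Slc38a2* by a small margin. *Slc38a3*, *Slc38a4*, *Slc38a6* and *Slc38a7* gave 0.66, 0.43, -0.04 and -0.09, with adjusted p from 0.114 to 0.907. Among the SLC36 carriers, the abundant *Slc36a4* had 69.5 and 78.0 CPM against 51.2 and 57.4 CPM (log2 fold change -0.44, adjusted p = 0.0133) and *Slc36a1* gave 0.28 (adjusted p = 0.34).

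**Figure D3:**
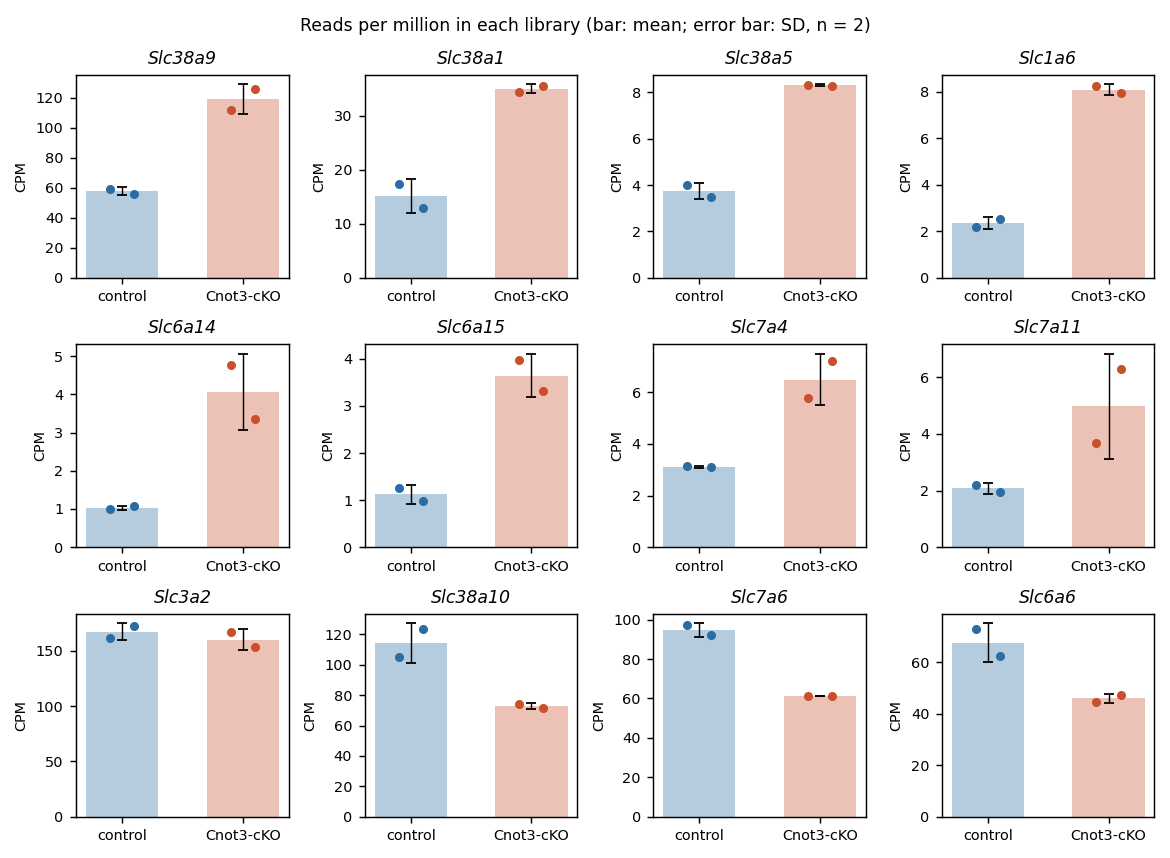
Level in CPM of the 7 called members, *Slc7a11*, *Slc3a2* and the 3 members lower at any fold, with 1 point per library (2 control, 2 *Cnot3*-cKO), bars at the group mean from 0 and error bars of 1 SD (n = 2). Points of the 2 groups are apart in all of these genes except *Slc3a2*, and *Slc7a11* in *Cnot3*-cKO cells runs from 3.66 to 6.28 CPM.

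Members were also set beside all tested genes of like level, by the mean CPM over the 4 libraries. From 1 to 10 CPM, 13 of 22 members lay above control in both *Cnot3*-cKO libraries and 6 below, where all genes at that level gave 36.7% and 19.3%, and 5 of 22 were called higher against 6.78%. At 10 CPM or more, 5 of 19 lay above and 10 below, against 26.9% and 42.8% of all genes at that level, and 2 of 19 were called higher against 4.01%. Medians there were -0.21 for members and -0.08 for all genes. Under 1 CPM there were 5 members, and 3 of them, *Slc6a12*, *Slc6a21* and *Slc7a15*, met the expression filter only through the *Cnot3*-cKO libraries, so no direction is read from that group. The other 43 tested members, the 7 called ones included, met it in both groups. Over all 46, 21 lay above control and 17 below without overlap, where the background was 30.5% and 28.6%. The 21 include *Slc6a12*, *Slc6a21* and *Slc7a15*, so no direction is read from this count.

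**Figure D4:**
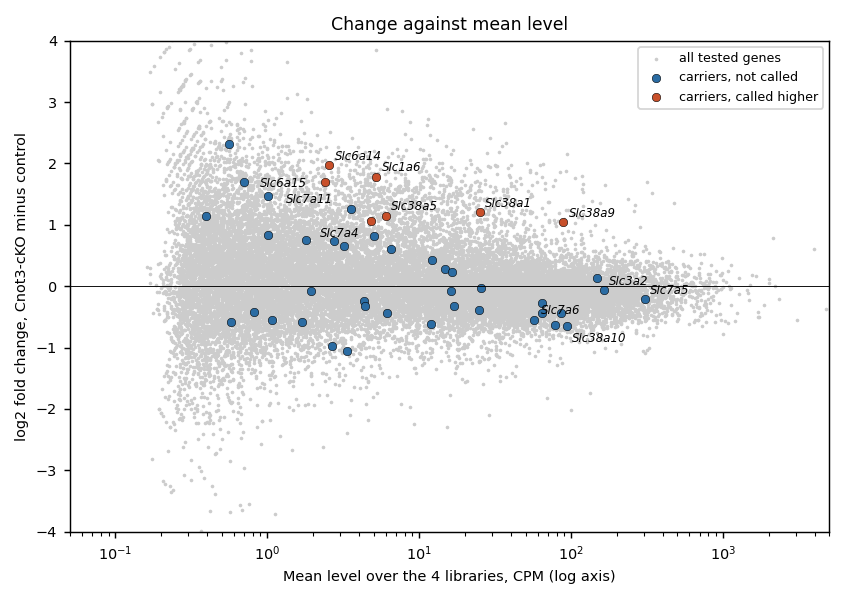
Log2 fold change (*Cnot3*-cKO over control) against the mean level over the 4 libraries in CPM (log axis), with all tested genes in grey, members in blue and the members called higher in orange. The vertical axis ends at -4 and 4. The called members lie on the left and middle of the axis, with *Slc38a9* the one farthest to the right.

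Genes that act beside these carriers are given in 5 lists, each to be read against the 4.03% of all tested genes called higher and the 0.735% called lower. Counts at an unadjusted p under 0.05 have no such share beside them and are not read as a result. For the path from cystine to glutathione, 20 of 22 genes were tested, 0 rose past the thresholds by edgeR and by DESeq2, with 5 higher at an unadjusted p under 0.05, and 1 fell. It was *Anpep*, an aminopeptidase of the cell surface, from 17.0 and 12.8 CPM in controls to 6.75 and 6.63 CPM (log2 fold change -1.15, adjusted p = 0.00175). *Gclc*, the catalytic subunit of the enzyme that joins cysteine to glutamate, had 204 and 199 CPM in controls and 323 and 306 CPM in *Cnot3*-cKO cells (log2 fold change 0.64, SE 0.08, adjusted p = 1.93e-04), short of the fold limit. *Gsr*, which recycles glutathione, had 378 and 425 CPM against 316 and 346 CPM (log2 fold change -0.28, adjusted p = 0.0391). At any fold, an adjusted edgeR p under 0.01 was reached by 2 of 20 higher (background 6.21%) and by 1 lower (background 4.7%). The median over the list was 0.05.

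The amino acid response list, the genes of ATF4 and its targets, had 33 tested genes, of which edgeR and DESeq2 called 0 in each direction, with 11 higher and 5 lower at an unadjusted edgeR p under 0.05. At any fold, 4 of 33 were higher (background 6.21%) and 1 was lower (background 4.7%) at an adjusted edgeR p under 0.01. The median of the list was 0.09. *Asns*, asparagine synthetase and a standard target of that response, had 38.1 and 42.998 CPM in controls and 65.1 and 77.6 CPM in *Cnot3*-cKO cells (log2 fold change 0.82, SE 0.12, adjusted p = 5.79e-04). *Cebpg*, a partner of ATF4, had 97.5 and 90.9 CPM against 63.0 and 63.2 CPM (log2 fold change -0.58, adjusted p = 0.00131).

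In the list of amino acid sensing to mTORC1, edgeR and DESeq2 called 0 of 32, with 3 higher and 12 lower at an unadjusted p under 0.05, and the median was -0.12. At any fold, an adjusted edgeR p under 0.01 was reached by 6 of 32 lower (background 4.7%) and by 1 higher (background 6.21%). *Rragd*, one of the Rag GTPases that bind the Ragulator complex and *Slc38a9* at the lysosome, had 171 and 160 CPM in controls and 92.3 and 84.3 CPM in *Cnot3*-cKO cells (log2 fold change -0.90, SE 0.09, adjusted p = 4.86e-05), a difference of the opposite sign to that of *Slc38a9* and short of the fold limit. *Bmt2*, a methionine-linked sensor gene, had 45.6 and 48.4 against 64.1 and 64.1 CPM (log2 fold change 0.45, adjusted p = 0.00905). The other Rag genes, the 5 Ragulator genes and *Castor2* were added after their values were seen. *Castor2* had 48.6 and 40.0 CPM in controls and 24.3 and 22.8 CPM in *Cnot3*-cKO cells (log2 fold change -0.91, adjusted p = 6.26e-04), short of the fold limit. *Rraga*, *Rragb* and *Rragc* gave -0.06, 0.36 and -0.18, and *Lamtor1* to *Lamtor5* gave -0.58, -0.30, -0.37, -0.19 and 0.11, of which *Lamtor1* alone had an adjusted p under 0.01 (0.00357).

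Of 35 tested genes of amino acid use, 4 rose and 1 fell, where all tested genes gave 4.03% and 0.735%. At any fold, 5 of 35 were higher (background 6.21%) and 2 lower (background 4.7%) at an adjusted edgeR p under 0.01. *Gatm* and *Gamt*, which make creatine from arginine and glycine, had 37.0 and 37.4 CPM against 118 and 113 CPM (log2 fold change 1.63, adjusted p = 1.12e-06), and 6.18 and 5.61 against 14.4 and 13.3 CPM (1.23, adjusted p = 8.13e-04). *Abat*, the GABA-degrading aminotransferase, had 14.3 and 14.8 CPM against 39.5 and 37.3 CPM (log2 fold change 1.40, adjusted p = 2.78e-05), and the branched-chain aminotransferase *Bcat2* had 6.93 and 5.54 CPM against 15.9 and 18.1 CPM (1.45, adjusted p = 3.03e-04). The proline-degrading *Prodh* fell from 15.2 and 17.7 to 6.93 and 7.89 CPM (log2 fold change -1.15, adjusted p = 0.00104). *Got2*, the mitochondrial aspartate aminotransferase, had the smallest p of the uncalled lower genes (log2 fold change -0.66, adjusted p = 0.00128). Of 20 tested amino acid and peptide carriers of other families, 2 rose (background 4.03%), the peptide carrier *Slc15a2* (log2 fold change 1.33, adjusted p = 0.00473) and the mitochondrial aspartate-glutamate carrier *Slc25a12* (1.09, adjusted p = 0.0012), and 0 fell by edgeR and by DESeq2, with 3 lower at an unadjusted p under 0.05. *Slc25a18* and *Slc16a10* gave 1.22 and -0.81, with adjusted p of 0.0148 and 0.00763. At any fold, 2 of these 20 carriers were higher (background 6.21%) and 1 lower (background 4.7%) at an adjusted edgeR p under 0.01. The median of this list was 0.28.

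**Figure D5:**
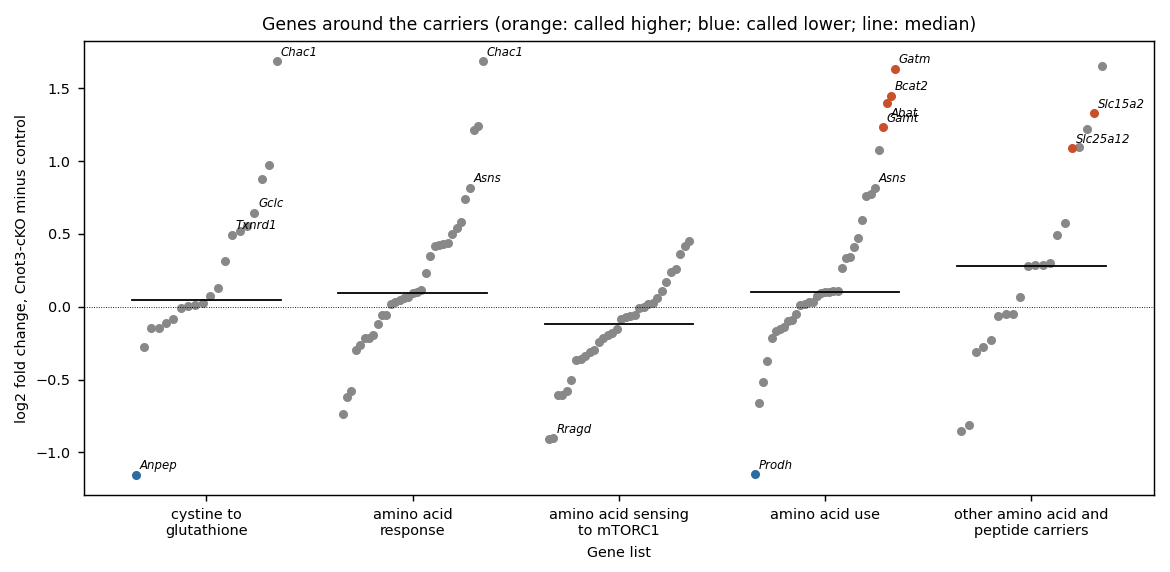
Log2 fold change (*Cnot3*-cKO over control) of each tested gene in the 5 pathway lists, 1 point per gene with a line at the list median, orange for genes called higher and blue for genes called lower. The medians lie between -0.12 for sensing to mTORC1 and 0.28 for the other carriers, and the called genes are in 3 of the 5 lists.

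The 58 members lie on 19 chromosomes, and several stand close together. *Slc6a16* and *Slc6a21*, 4.1 kb apart on chromosome 7, gave log2 fold changes of -0.55 and 2.31, neither called. Of the 4 members on chromosome X, 2 were called, *Slc38a5* and *Slc6a14*. The share called among all genes of that chromosome was not computed, so no result is read from this count. Of the 12 members that were not tested, *Slc6a5* and *Slc6a18* had 0 reads in every library, and the other 10 had at most 19 reads in any library. *Slc7a10*, a light chain for small neutral amino acids, had 14 and 2 control reads and 0 in both *Cnot3*-cKO libraries, and *Slc7a12* had 2 and 6 reads against 0 and 0. Those zeros allow up to 3 counts, 0.132 and 0.105 CPM. *Slc7a13* had at most 2 reads. *Slc38a8* had 19 and 6 control reads against 0 and 4. The low-count *Slc36a2*, *Slc36a3*, *Slc38a11*, *Slc6a3*, *Slc6a13* and *Slc6a19* had between 0 and 15 reads in each library.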

How the data were processed

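RNA-seq of sorted ID4-EGFP+ spermatogonia was used from 2 control and 2 *Cnot3*-cKO libraries, grouped by the labels. The authors deposited raw counts per gene symbol, made by keeping reads of good mean Phred quality, aligning them to mm10 with STAR and counting them on GENCODE genes with featureCounts, with a stranded total RNA library kit. The strand setting and the handling of multi-mapping reads are not given in the sources used here. The counts had not been normalized, and 0 columns were left unused. Totals ran from 22192964 to 43378493 reads, and 3 counts was taken as the floor (0.0713 to 0.132 CPM, counting error only).

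*Cnot3*-cKO was compared with control, without covariates, by edgeR 4.0.16 in R 4.3.3, with TMM scaling, the default expression filter, the quasi-likelihood F test and Benjamini-Hochberg adjustment over 23952 genes. A call required an adjusted p under 0.01 and more than a 2-fold difference, the thresholds of the study, which used DESeq2. DESeq2 1.42.0 was an alternative. Counts at an unadjusted p under 0.05, for members, markers and pathway lists, are given without the share over all tested genes, and no result is read from them. Standard errors were the log2 fold change over the root of the F statistic. With 2 libraries against 2 an exact permutation test cannot give a two-sided p under 0.333, so every p rests on dispersions fitted across genes (biological coefficient of variation 0.145). RPKM used union exons of GENCODE M21 on GRCm38, an earlier release than the counting used. Promoters came from RefSeq on GRCm38.p6.

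Members and lists were chosen with earlier results of these data known. Every tested member is named except 1, which is not reported here and not plotted but stays in the counts, with all libraries for called members, *Slc7a11*, *Slc3a2*, *Slc1a1*, *Slc1a4*, *Slc1a5*, the 10 highest by RPKM and those at an adjusted p under 0.01. From each pathway list, called genes and the uncalled gene with the smallest p in each direction are named. The pathway list names *Mars1*, *Gatsl2*, *Gatsl3*, *Samtor* and *Slc66a1* matched no listed symbol. They are other names of *Mars*, *Castor2*, *Castor1*, *Bmt2* and *Pqlc2*, which were in the lists and in the counts. Alternatives were RLE scaling, library size only, scaling to pan-germ cell genes, no filter, a mean count of at least 50, DESeq2, glmTreat against 2-fold, an adjusted p under 0.05, no fold limit, a replicate block, thinning and leaving out each library. On simulated data with these library sizes, 23195 genes were tested and 158 of 200 genes changed 4-fold were recovered. Beside those 158, 7 unchanged genes were called, and with nothing changed 0 were called. Figures were made in Python 3.11.15 with matplotlib 3.10.9.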

Additional observations from a re-analysis of the deposited data

How the results depend on the processing

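Over the 46 tested members, 640 of 682 values under the alternatives kept direction and side of the thresholds, 12 lost a call (7 genes), 18 gained one (8 genes) and 12 changed sign (6 genes). Fits with 1 library left out are among these. They leave 1 library in a group, so their calls and p-values are not reliable. No result is read from the calls lost or gained in them, and below only their log2 fold changes are given. The count of members called higher was 0 with glmTreat, where 5 of them had an unadjusted p under 0.05. The count called lower was 1 without the filter, 1 at an adjusted p under 0.05 and 3 without the fold limit. All genes called higher numbered 87 with glmTreat, 1452 at an adjusted p under 0.05 and 1488 without the fold limit. All genes called lower numbered 109 with pan-germ cell scaling, 285 without the filter, 5 with glmTreat, 284 at an adjusted p under 0.05, 1125 without the fold limit and 217 to 271 with 1 library left out. *Cnot3* kept its log2 fold change of -1.48 with glmTreat and lost its call (adjusted p = 0.0346), and ran from -1.59 to -1.37 with 1 library left out. The summed member level in *Cnot3*-cKO cells was 0.954 of control with library size only and 0.999 with pan-germ cell scaling, which moves the median log2 fold change of all genes to 0.14 from 0.01. Signs changed with library size only for *Slc38a6* (0.029), *Slc3a2* (0.0040) and *Rraga* (0.0013), and with pan-germ cell scaling for *Slc38a6* (0.086), *Slc38a7* (0.047), *Slc3a2* (0.073), *Slc6a7* (0.068) and *Rraga* (0.060). Thinning gave *Slc6a7* 0.048. With 1 library left out, the log2 fold change ran from -0.22 to 0.14 for *Slc38a6*, from -0.25 to 0.12 for *Rraga*, from -0.50 to 0.027 for *Slc6a17*, from -0.36 to 0.26 for *Slc6a7*, from -0.42 to 0.038 for *Lamtor4*, from -2.21 to 0.11 for *Slc6a4* and from -0.21 to 0.019 for *Slc38a7*. Why they changed was not tested.

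*Slc7a11* was also called with pan-germ cell scaling, without the filter, at a mean count of at least 50 and at an adjusted p under 0.05. Its log2 fold change ran from 0.81 to 1.59 over all alternatives. That of *Slc7a7* ran from 0.52 to 1.07 with 1 library left out. The replicate numbers are shared by the groups, and the labels do not say whether they mark a pairing. The deviations of replicate 1 libraries correlated at 0.0786 over 18050 genes. With 2 libraries per group this value cannot decide whether libraries were paired. With the replicate block, 8 members were called higher, *Slc7a11* joining, 0 lower, and 1155 genes higher and 217 lower among all genes. The 12 members under the expression filter were not tested, and no difference is read from their counts.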
